A study of Mus musculus with 2 samples.

Results

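The 40 genes described here are cell cycle genes taken by symbol from the 32285 features of the count tables. They comprise 15 genes of S phase, most of them of DNA replication and called S members below, 5 D and E cyclins, and 20 genes of G2 and mitosis, called G2/M members. All 40 were found and all passed the filter on low values, 5 CPM (UMI counts scaled to the library total) in either library. They were measured by droplet single-cell RNA sequencing on day 6 of a cardiomyocyte differentiation of D3 cells, a mouse embryonic stem cell line. Of the 2 libraries, one came from wild-type cells (the control) and one from cells with a Zbtb16 knockout; both went through the differentiation treatment. The study collected this stage, which its labels call the CP stage, to find the subpopulation that Zbtb16, a zinc finger transcription factor, regulates. How many clones the knockout represents is not stated in the labels.

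Each group is 1 library, so there is no replicate check on any difference, and cells of a library are not replicates. Ranges in parentheses are exact 95% intervals that cover counting error only: Poisson for levels, Clopper-Pearson for shares. A gene is called higher or lower when CPM plus 1 differed by at least 1.5-fold, which is a rule of size and not a test. Cells were barcodes with at least 15000 UMIs (counted molecules) and at most 10% mitochondrial UMIs, which left 6354 control and 9449 knockout cells with medians of 37324 and 30513 UMIs. The libraries shared 16 barcodes. Zbtb16 stood at 22.2 CPM in control and 0.994 CPM in knockout cells; the labels do not state which stretch was deleted. The pluripotency gene Pou5f1 stood at 5.53 and 16.3 CPM. Cardiomyocyte markers summed to 2563 CPM in control and 208 CPM in knockout cells, with none of the 12 markers at 0, so the libraries differed in cell makeup.

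Cell cycle genes are switched on in waves. Late in G1, D and E cyclins drive inactivation of the Rb family, E2F factors are released, and genes of the replication machinery (the MCM helicase, the clamp Pcna, enzymes of nucleotide supply) are transcribed. Through S phase into mitosis a later set follows, with cyclins A and B, Cdk1, kinetochore and spindle proteins, before the anaphase promoting complex destroys the cyclins. Heart muscle cells divide in the embryo and leave the cycle as they mature.

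The waves rest on short promoter elements, and 5 upstream stretches are printed to show what members of either wave carry. Capitals mark each match, on either strand, to an E2F site (TTTCCCGC, TTTGGCGC, TTTGCCGC or TTTCGCGC), to TTTGAA, the core of the cell cycle homology region bound by the DREAM and MuvB complexes, or to CCAAT, the NF-Y element. Sequences are from RefSeq on GRCm38.p6, another build than that of the counts, and run 5′ to 3′ on the strand of the gene. Mcm6 is an S member, Cdk1 carries all 3 motifs, and Cdc20, Mki67 and Knl1 are G2/M members that differed in opposite directions between the libraries, as described further on. Each stretch ends before the first annotated exon base.
Mcm6, chr1:128359706-128359905, minus strand: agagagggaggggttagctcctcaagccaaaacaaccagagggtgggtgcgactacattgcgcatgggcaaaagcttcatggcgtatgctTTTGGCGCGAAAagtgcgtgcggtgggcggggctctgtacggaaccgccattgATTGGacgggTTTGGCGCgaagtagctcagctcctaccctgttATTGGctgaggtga
Cdk1, chr10:69352939-69353112, minus strand: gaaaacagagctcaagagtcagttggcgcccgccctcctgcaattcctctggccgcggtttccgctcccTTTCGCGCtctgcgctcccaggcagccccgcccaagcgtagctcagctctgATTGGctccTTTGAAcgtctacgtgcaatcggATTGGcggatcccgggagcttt
Cdc20, chr4:118437353-118437543, minus strand: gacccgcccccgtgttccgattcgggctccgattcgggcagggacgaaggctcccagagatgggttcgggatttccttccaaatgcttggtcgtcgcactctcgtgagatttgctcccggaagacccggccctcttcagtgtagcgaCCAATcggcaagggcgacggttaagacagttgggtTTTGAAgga
Mki67, chr7:135716380-135716579, minus strand: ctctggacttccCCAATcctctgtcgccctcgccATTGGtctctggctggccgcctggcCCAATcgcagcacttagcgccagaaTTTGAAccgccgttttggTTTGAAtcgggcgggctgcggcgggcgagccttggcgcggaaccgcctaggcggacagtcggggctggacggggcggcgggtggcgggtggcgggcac
Knl1, chr2:119046919-119047118, plus strand: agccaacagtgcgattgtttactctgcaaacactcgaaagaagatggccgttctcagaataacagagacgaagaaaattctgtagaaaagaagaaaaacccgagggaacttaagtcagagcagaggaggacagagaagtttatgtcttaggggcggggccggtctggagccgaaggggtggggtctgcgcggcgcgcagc

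Promoters were matched for 32 of the 40 members, and the 250 bases before the start were searched. An E2F match was found in 4 of 13 S members (Mcm5, Mcm6, Mcm7 and Cdc6), 1 of 17 G2/M members (Cdk1) and 1.86% of all 32851 promoters. TTTGAA was found in 2 S members and 6 G2/M members (Ccnb2, Cdk1, Cdc20, Ube2c, Mki67 and Top2a), against 15.99% of all promoters. CCAAT was in 10 of 13 and 14 of 17, against 33.9%. Mcm6 has a pair of E2F matches that overlap on opposite strands, as 1 run of capitals. Mki67 has 2 TTTGAA matches and 3 CCAAT matches in the stretch shown, Cdc20 has 1 of each, and Knl1 none.

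To see how the members are spread over the cycle in these cells, cells of each library were thinned to 15000 UMIs and ordered by their sum of G2/M members, leaving out the gene described, then split into 5 sets of equal size (quintiles). All 20 G2/M members were highest in the top quintile in both libraries, and the top quintile stood above the bottom one by a median of 47.8-fold in the control and 48.3-fold in the knockout. Ccnb2, a B cyclin, spanned the least, 7.21-fold in the control, and Hmmr, a spindle protein, the most, 151-fold. That members of a sum go up with it is partly set by the ordering, and deeper cells lay in the top quintile, with a median of 51262 control UMIs against 27027 in the bottom quintile. The S members did not enter this ordering. In the control 5 of the 15 were highest in the second quintile, 8 in the third and 2 in the fourth, and none at either end.

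Single S members show that order. In the control Ung, which removes uracil from DNA, stood at 54.3, 96.7, 81.3, 33.5 and 7.45 CPM from the bottom quintile to the top. Rrm2, the regulated subunit of ribonucleotide reductase, stood at 51.8, 214, 432, 363 and 243 CPM. Cdc6, which loads the MCM helicase at origins, stood at 8.97, 39.4, 38.8, 18.3 and 9.03 CPM. Ung and Cdc6 were thus highest a quintile earlier than Rrm2, and the knockout library had the same peak quintile for these 3 genes. Ccne2, a cyclin of G1/S, stood at 11.7, 35.2, 43.3, 22.0 and 8.14 CPM, while the D cyclin Ccnd2 stood at 283, 254.5, 221, 204 and 199 CPM, a far flatter course.

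Between libraries, 7 of the 40 members were higher in the knockout and none was lower. Of all 10289 measured features, 12.7% were higher and 6.75% lower, so the share of members called higher, 7 of 40, lies near that of all features. The S members had a median log2 ratio of -0.03, the D and E cyclins 0.15 and the G2/M members 0.20, against 0.02 for all measured features. The G2/M members split by role, which the phase medians hide: all 6 of chromatin and kinetochore lay above 0 and all 6 mitotic cyclins, Cdk1 and factors of the anaphase promoting complex lay below 0.

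Of the MCM helicase, which unwinds DNA at the fork as a ring of 6 subunits, 1 subunit stood out. Mcm4 stood at 99.0 CPM in control cells (97.9 to 100.2) and 173 CPM in knockout cells (171 to 174), a log2 ratio of 0.80. Mcm6 stood at 136 and 165 CPM, and Mcm7 at 133 and 134 CPM, the smallest difference of the ring. The other 3 subunits lay between -0.17 and 0.24 on the log2 scale. Exons of Mcm7 overlap those of Cops6 and Ap4m1 on the other strand, so its counts are uncertain if strand was not used. Of the 40 members 12 have such an overlap, none of them among the 7 called higher. On its own strand Mcm7 also overlaps Mir25 and Mir93, and Top2a overlaps a gene on its own strand as well.

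Among the 9 other S members, mostly of nucleotide supply, clamp and origin firing, none passed 1.5-fold. Rrm1, the large subunit of ribonucleotide reductase, stood at 122 CPM in control and 159 CPM in knockout cells, while its partner Rrm2 stood at 283 and 225 CPM, log2 ratios of 0.37 and -0.33. Subunits of 1 enzyme thus lay on opposite sides of 0, and each did so in all 5 sets of cells compared further on. Pcna, the sliding clamp, stood at 197 and 193 CPM. The D and E cyclins, which start the cycle, stayed within -0.32 and 0.24. Ccne1 stood at 55.3 and 44.3 CPM, Ccnd2 at 232 and 193 CPM, and Ccnd1 at 58.5 and 64.9 CPM.

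**Figure D1:**
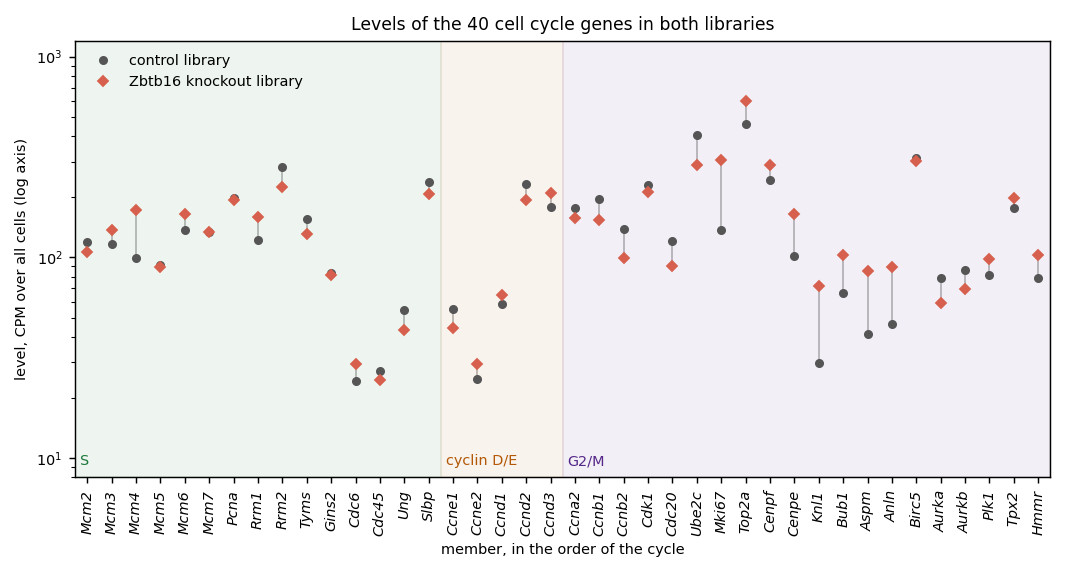
Level of each member in the control (circles) and knockout (diamonds) library, in CPM summed over all cells on a log axis, in the order of the cycle; counting intervals are smaller than the symbols. Knockout levels lie above control levels for all 6 members from Mki67 to Bub1 (137 against 305 CPM for Mki67) and below them from Ccna2 to Ube2c.

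The 6 members that drive entry into and exit from mitosis were a little lower in the knockout, all under 1.5-fold. Ube2c, the E2 enzyme of the anaphase promoting complex, stood at 405 CPM in control cells (402 to 407) and 289 CPM in knockout cells (288 to 291), a log2 ratio of -0.48. Ccnb2 stood at 139 and 99.2 CPM, also -0.48, and Cdk1, the mitotic kinase, at 228 and 211 CPM, -0.12. Exons of Ube2c overlap those of Tnnc2 on the other strand.

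The chromatin and kinetochore members held 4 of the 7 genes called higher. Knl1, the scaffold of the outer kinetochore, stood at 29.6 CPM in control cells (29.0 to 30.2) and 71.8 CPM in knockout cells (71.0 to 72.8), a log2 ratio of 1.25. Mki67, which coats mitotic chromosomes and is the usual proliferation marker, stood at 137 CPM (136 to 139) and 305 CPM (303 to 307), a log2 ratio of 1.15. Cenpe, a kinetochore motor, stood at 101 and 164 CPM, and the checkpoint kinase Bub1 at 66.7 and 102 CPM. In the same group Cenpf stood at 243 and 289 CPM, a log2 ratio of 0.25, so kinetochore genes did not all differ by like amounts. Among kinases, spindle and cytokinesis genes, Aspm, a spindle pole protein, stood at 41.4 and 85.5 CPM and Anln, the scaffold of the contractile ring, at 46.6 and 89.0 CPM. Birc5, of the chromosomal passenger complex, stood at 313 and 302 CPM, while its kinase partner Aurkb lay at -0.31.

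The ratio followed transcript length. Over the 20 G2/M members Spearman's rho between log2 ratio and transcript length was 0.83, and over the 10286 measured features with a length it was 0.45; genes are not independent replicates, and the members share cells and depth. Of the 9 G2/M members with transcripts of at least 4000 bases, 5 were higher, and the median log2 ratio was 0.69. Of the 11 shorter ones 1 was higher, Bub1 at 3421 bases, and the median was -0.31. The transcript of Knl1 has 7800 bases and that of Mki67 10061, while those of Ube2c and Ccnb2 have 2191 and 1531. Cdk1, Tpx2 and Cenpf were exceptions, at 4375, 4365 and 11130 bases with log2 ratios of -0.12, 0.16 and 0.25. Among the shorter ones Plk1, at 2199 bases, lay at 0.26. Over the S members rho was 0.62, and over the 5 D and E cyclins it was 0.

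After removal of the trends on length and GC content fitted over all features, 4 members were higher and 1 lower, beside 7.71% and 6.95% of features. Mcm4, Mki67, Knl1 and Anln stayed past 1.5-fold, with corrected log2 ratios of 0.67, 0.70, 0.77 and 0.68. Cenpe, Bub1 and Aspm did not, at 0.27, 0.47 and 0.58. Ccnd2, with a transcript of 6330 bases, came to -0.61 and so counted as lower. The median of the G2/M members became -0.09, and all 6 mitotic cyclins, Cdk1 and anaphase promoting complex members were still below 0. Of the 6 chromatin and kinetochore members 5 were still above 0, and Cenpf came to -0.22.

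**Figure D2:**
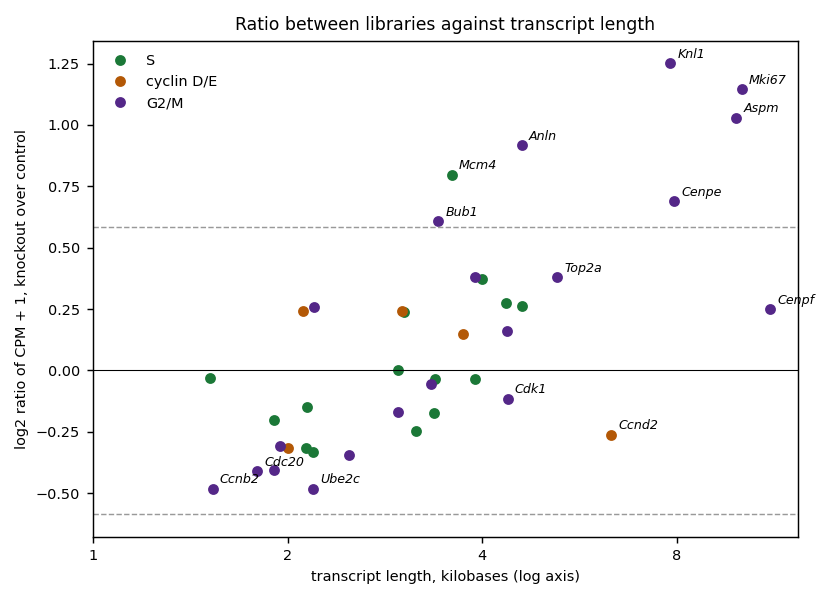
Log2 ratio of CPM plus 1, knockout over control, against transcript length in kilobases (log axis) for the 40 members, coloured by phase; dashed lines mark 1.5-fold. The 5 longest G2/M members other than Cenpf lie between 0.38 and 1.25, and Ccnb2, Cdc20 and Ube2c, at 1531 to 2191 bases, lie between -0.48 and -0.41.

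The difference was not confined to cells of 1 position in the cycle. With cells split into quintiles by the G2/M sum as above, Mcm4, Knl1, Bub1 and Anln had knockout levels at least 1.5-fold above the control in each of the 5 quintiles, and Mki67, Cenpe and Aspm in 4. Knl1, Bub1 and Anln lay near the floor in the bottom quintile. Knl1 stood there at 0.577 CPM in control and 2.54 CPM in knockout cells, Bub1 at 2.41 and 6.35 CPM and Anln at 2.83 and 7.62 CPM. The part of RNA from outside the cell in these low values was not tested. In the middle quintile Mki67 stood at 105 CPM in control and 248 CPM in knockout cells, and in the top quintile at 270.5 and 593 CPM. Ube2c lay below 0 in all 5 quintiles and at least 1.5-fold lower in 3 of them, at 134 and 74.6 CPM in the middle quintile. So cells of the same quintile held a different mix of G2/M transcripts in the 2 libraries. Quintiles were cut within each library and did not hold equal sums. In the top quintile the median sum of all G2/M members was 102 UMIs in control and 114 in knockout cells. The sum itself includes members that differ in one or the other direction.

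The next comparison asked how cycle genes relate to cardiac muscle differentiation, within the control library. Cells were binned by Actc1, the cardiac actin, which is no member: 4016 cells had no Actc1 UMI, 1356 were under 100 CPM, 308 at 100 to 300, 318 at 300 to 1000 and 356 at 1000 CPM or more. In the top bin cardiomyocyte markers summed to 18452 CPM, against 1102 CPM at 0. In the knockout library 9202 of 9449 cells had no Actc1 UMI, so only the control could be binned.

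Cells in the top Actc1 bin had lower levels of most members: 24 of the 40 were at least 1.5-fold lower than in cells at 0 and none was higher. Of all 10316 measured features 9.25% were lower and 7.75% higher. The lower members comprised 8 of 15 S members, 3 of 5 cyclins and 13 of 20 G2/M members, with medians of -0.62, -0.62 and -0.72 on the log2 scale against -0.05 for all features. This count depended on the bins and on depth. With cells binned on Myl7 or Tnnt2 in place of Actc1, whose bins of 1000 CPM or more held 1729 and 777 cells, 3 and 4 members were lower, and with at least 30000 UMIs per cell, which left 155 of the 356 cells, 5 were. The median depth was 37003 UMIs at 0 and 28480 in the top bin. With each cell thinned to 15000 UMIs, 30 members were lower.

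The largest difference over all cells was in a D cyclin. From 0 to the top bin Ccnd1 stood at 65.6, 54.6, 39.0, 39.0 and 25.3 CPM, a log2 ratio of -1.34 (-1.50 to -1.18), and each bin from 100 CPM up lay below the 2 lowest bins. Ccnd2 stood at 225, 243, 240, 248 and 234 CPM, and Ccne1 at 55.9, 56.3, 49.5, 51.0 and 53.3 CPM, so neither followed Ccnd1. Ccnd3 stood at 188 CPM at 0 and 120 CPM in the top bin, and Ccne2 at 26.1 and 16.6 CPM. The 0 bin holds endothelial cells, the highest in Ccnd1 among gated control cells, and without the endothelial, endoderm and pluripotent gates the ratio of Ccnd1 was -0.86, under the -1.06 of Cdc6 there in size. The count of lower members was again 24.

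All 15 S members lay below 0 at 100 to 300 CPM of Actc1 and 14 of 15 in each of the 2 bins above, with Mcm2 as the exception. Cdc6 stood at 25.8, 25.6, 16.8, 16.6 and 10.99 CPM, a log2 ratio of -1.16, the largest among S members. Rrm1 stood at 125, 128.1, 112, 107 and 73.1 CPM. Mcm2 stood at 120, 120, 114, 120 and 120 CPM, a log2 ratio of 0.01 (-0.07 to 0.08), while Mcm5, a subunit of the same ring, stood at 95.995 CPM at 0 and 60.004 CPM in the top bin. The other 5 called lower were Pcna, at 205 and 131 CPM, Rrm2, at 293 and 182 CPM, Tyms, which makes thymidylate, at 159 and 103 CPM, the origin factor Gins2, at 87.4 and 54.8 CPM, and Cdc45, at 27.6 and 16.7 CPM. Ung had the smallest difference of this role, -0.44, and Mcm6 lay at -0.50.

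The G2/M members had another course. All 20 lay above 0 under 100 CPM, 15 at 100 to 300 and 8 at 300 to 1000, and all 20 lay below 0 in the top bin. Under 100 CPM their median was only 0.11 on the log2 scale. Median depth there was 43352 UMIs, against 37003 at 0. It was 35838.5 UMIs at 100 to 300 and 34655 at 300 to 1000 CPM. The part of depth in this course was not tested. Mki67 stood at 139, 149, 138, 120 and 68.3 CPM, a log2 ratio of -1.01 (-1.11 to -0.91). Ube2c stood at 381, 452, 483, 458 and 298 CPM, so it was highest at 100 to 300 CPM of Actc1, as were 8 other G2/M members. Cdk1 stood at 228, 244, 236, 223 and 137 CPM. Cenpf had the smallest difference of all G2/M members, 232 CPM at 0 and 188 CPM in the top bin. In the bins of 300 to 1000 and of 100 to 300 CPM, 2 of 40 members each were lower, Cdc6 and Ccnd1 both times, and none was higher. Of all features 3.63% and 3.23% were lower there and 4.43% and 3.65% higher. Under 100 CPM no member passed 1.5-fold, against 0.25% of features lower and 0.44% higher.

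The other G2/M members called lower in the top bin differed by like amounts. Knl1 stood at 29.6 CPM at 0 and 15.8 CPM in the top bin, Cenpe at 102 and 55.4 CPM, Bub1 at 67.2 and 38.5 CPM, and Top2a, the topoisomerase of mitotic chromosomes, at 454 and 278 CPM. Of the spindle and cytokinesis genes, Aurkb stood at 85.7 and 46.5 CPM, Aspm at 40.3 and 23.3 CPM, Plk1 at 81.6 and 47.6 CPM, Anln at 46.8 and 27.5 CPM, Birc5 at 321 and 191 CPM and Tpx2 at 177 and 115 CPM. Cdc20, the activator of the anaphase promoting complex, stood at 122 and 78.1 CPM. Aurka, at -0.54, and Hmmr, at -0.57, stayed under 1.5-fold. Top2a and Aspm lay above 0 with bins on Myl7, at 0.04 and 0.05, and on Tnnt2, at 0.01 and 0.02. Of the G2/M members under 1.5-fold, Cenpf, Ube2c, Ccnb1, Aurka and Hmmr did too. They lay at 0.35, 0.31, 0.22, 0.20 and 0.13 on Myl7 and at 0.25, 0.22, 0.12, 0.15 and 0.16 on Tnnt2. Ccna2 and Ccnb2 lay above 0 on Myl7 alone, at 0.03 and 0.08. The direction of the G2/M members thus depended on the marker used for the bins.

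**Figure D3:**
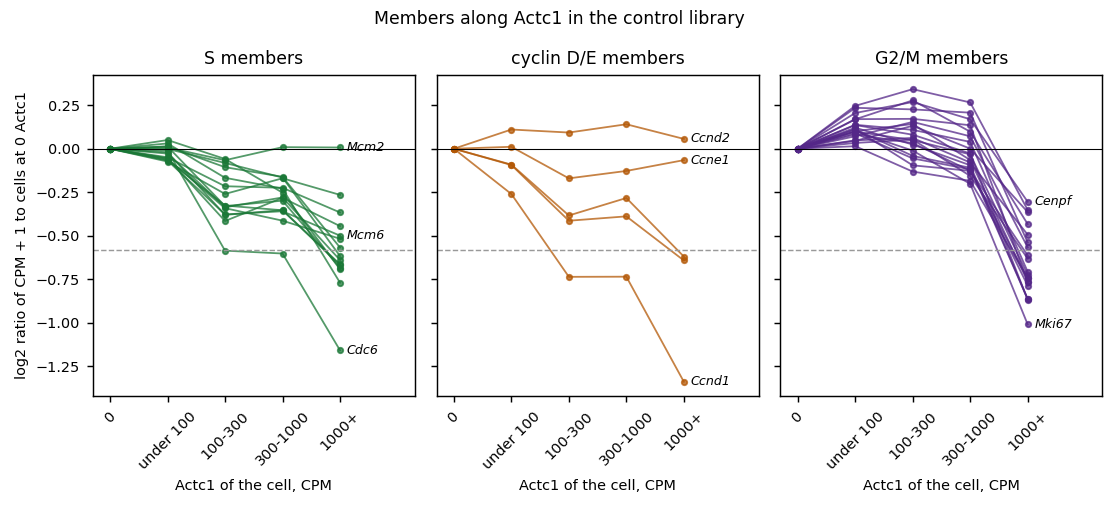
Log2 ratio of CPM plus 1 to control cells without an Actc1 UMI, by Actc1 level of the cell, 1 line per member, in 3 panels by phase; the dashed line marks 1.5-fold lower. S members are below 0 from 100 CPM on apart from Mcm2, while G2/M members lie between -0.20 and 0.34 until the top bin, where they lie between -1.01 and -0.30.

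The G2/M sum was also read in single cells, thinned to 15000 UMIs. Cells with a sum under 12 are called low, and whether they form a separate class was not tested. In the control, cells per UMI of the sum fell from 317 at 2 to 4 UMIs to 76.75 at 8 to 12. They stood at 59.25 at 12 to 16 and 62.4 at 16 to 24. Near that limit, at 8 to 16, lay 544 control and 879 knockout cells. Low cells made up 29.3% of cells at 0 Actc1 (27.9 to 30.7), 26.1%, 38.96% and 41.8% in the next bins, and 60.4% in the top bin (55.1 to 65.5). Among the cells that were not low, the median G2/M sum was 48, 50, 60, 58 and 46 UMIs from 0 to the top bin. The top bin thus held more low cells, and its other cells lay below those of the 2 bins beside it. Since the limit is set on the same sum, fewer cells with G2/M transcripts and fewer transcripts per cell cannot be told apart. The S sum was lower in both kinds of cell: its median was 20 UMIs at 0 and 11 in the top bin among low cells, and 27 and 16 among the others.

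The share also moved with another marker and with depth. By Myl7, low cells made up 30.0% at 0 and 46.0% at 1000 CPM or more, and by Tnnt2 31.9% and 55.3%. With at least 30000 UMIs the difference between top and bottom Actc1 bin was 23.7 percentage points, against 31.1 over all cells. Low cells had fewer UMIs, a median of 28638 in the control against 43347 in the others. Few UMIs of free RNA are enough to matter at this limit: barcodes with 10 to 100 UMIs held G2/M members at 3046 CPM in the control, which at 5% of a cell's UMIs would give 2.28 UMIs of 15000, and the low cells had a median of 3.

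Over whole libraries the share of low cells was 31.4% in the control (30.3 to 32.6) and 31.7% in the knockout (30.8 to 32.7), whose intervals overlap. This result depended on mitochondrial content. The median mitochondrial share was 4.22% in the control and 5.02% in the knockout, and above 5% lay 68.1% of low and 42.8% of other knockout cells, against 30.3% and 15.2% in the control. With at most 5% mitochondrial UMIs the shares were 27.4% (26.1 to 28.6) and 20.6% (19.4 to 21.8). With at least 30000 UMIs the knockout share was lower by 5.64 percentage points. The part of mitochondrial content and depth in these shares was not tested.

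**Figure D4:**
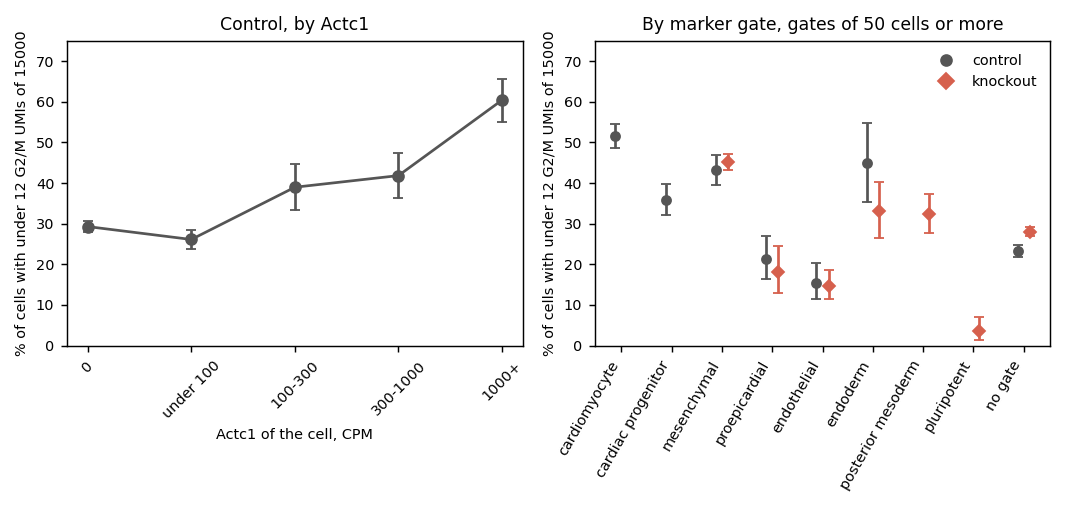
Share of cells with fewer than 12 G2/M UMIs of 15000, in percent with exact 95% intervals, by Actc1 in the control (left) and by marker gate in the control (circles) and knockout (diamonds) library (right). The share was 60.4% in the top Actc1 bin and 3.54% in the pluripotent gate of the knockout library.

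Cell states were then set by gates on marker lists that hold no member. The control library had 1078 cells in the cardiomyocyte gate and 658 in the cardiac progenitor gate, where the knockout had 9 in each. The knockout library had 382 posterior mesoderm and 198 pluripotent cells, where the control had 13 and 23. Mesenchymal, proepicardial, endothelial and endoderm gates held at least 50 cells in both libraries, and 3250 control and 5439 knockout cells passed no gate. Gates under 50 cells are not described further.

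Low cells ranged widely between states. In the control they made up 51.6% of the cardiomyocyte gate, 44.9% of endoderm, 43.1% of mesenchymal, 35.9% of cardiac progenitor, 21.4% of proepicardial and 15.5% of endothelial cells. The interval of endoderm overlaps those of its neighbours on both sides, while the cardiomyocyte and mesenchymal intervals do not overlap, and those of proepicardial and endothelial cells do. In the knockout the order was mesenchymal 45.2%, endoderm 33.2%, posterior mesoderm 32.5%, proepicardial 18.1%, endothelial 14.7% and pluripotent 3.54% (1.43 to 7.15). Endoderm and posterior mesoderm overlap, and so do proepicardial and endothelial. Endothelial and proepicardial cells thus had low shares in both libraries. Apart from endoderm, at a median of 45975 UMIs, the knockout gates stood in the inverse order of depth, from 27560 UMIs in mesenchymal to 43378 in pluripotent cells. In the control the median was 29951 UMIs in cardiomyocyte, 52522 in endothelial and 55595 in endoderm cells. The part of depth in this order was not tested.

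Phase groups had different peaks over states. In the control, S members were highest in the endothelial gate for 10 of 15, and lowest in endoderm for 11 and in the cardiomyocyte gate for 4. G2/M members were highest in the cardiac progenitor gate for 9 of 20 and in proepicardial cells for 8, and lowest in endoderm for 16. Some of these places are near ties with overlapping intervals. Mcm7 stood at 112.3 CPM in endoderm and 112.5 CPM in the cardiomyocyte gate, its lowest states. Top2a stood at 551.9 CPM in cardiac progenitor and 550.7 CPM in proepicardial cells, its highest. Mki67 stood at 163 CPM in proepicardial, 151 in cardiac progenitor, 127.9 in mesenchymal, 113 in endothelial, 110 in cardiomyocyte and 71.7 in endoderm cells. Proepicardial and cardiac progenitor levels overlap in their intervals, as do endothelial and cardiomyocyte levels. Cdc6 was lowest in the cardiomyocyte gate, at 14.3 CPM, and highest in endothelial cells, at 40.2 CPM. Cdk1 was highest in endothelial cells, at 335 CPM, and lowest in endoderm, at 144 CPM.

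Of all members Ccnd1 differed most between states in both libraries. It spanned 10.5-fold in the control, from 26.8 CPM in the cardiomyocyte gate to 282 CPM in endothelial cells, and 19.4-fold in the knockout, from 14.47 CPM in endoderm to 281 CPM in endothelial cells. Ccnd2 was lowest in the pluripotent gate of the knockout, at 40.2 CPM, where Ccnd1 stood at 178 CPM. In that gate Ccne1 stood at 187 CPM, against 34.9 to 59.1 CPM in the other knockout gates. Pluripotent cells were also highest in 10 of 15 S members; Ung stood there at 131 CPM, against 31.6 to 53.2 CPM in the other gates, and Mcm6 at 266 CPM. Gins2 was lowest in pluripotent cells, at 56.6 CPM, as was Tyms, whose interval overlaps that of mesenchymal cells. Of the G2/M members 8 were highest in pluripotent and 11 in proepicardial cells, some with overlapping intervals. Cenpf, for example, stood at 416 CPM in pluripotent and 397 CPM in proepicardial cells. Cdk1 and Mki67 were lowest in pluripotent cells, at 169.9 and 215 CPM, with intervals that overlap those of endoderm.

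Within states the calls between libraries recurred for the 7 members called higher. Mcm4, Mki67, Cenpe, Knl1, Bub1, Aspm and Anln had knockout levels at least 1.5-fold above the control in all 4 gates and in cells of no gate, and no member was higher in one and lower in another. In mesenchymal cells these 7 were all that were higher and none was lower, beside 10.7% of features higher and 5.41% lower. The same counts held in endothelial cells, beside 11.3% and 5.76%, and in cells of no gate, beside 12.7% and 6.84%. In proepicardial cells 9 were higher and 2 lower, beside 13.4% and 6.82%, and in endoderm 10 and 1, beside 14.4% and 7.26%. The gates shared no cells, but all came from the same 2 libraries and are not independent replicates.

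Endoderm showed the largest ratios of 5 of the 7, Mcm4, Mki67, Cenpe, Knl1 and Bub1. Knl1 stood at 17.1 CPM in control endoderm (14.4 to 20.2) and 65.8 CPM in knockout endoderm (61.1 to 70.8), a log2 ratio of 1.88. In mesenchymal, proepicardial and endothelial cells it stood at 23.3 and 60.4, 33.1 and 85.7, and 35.3 and 87.2 CPM. Mki67 stood at 71.7 and 221 CPM in endoderm, 127.9 and 273 CPM in mesenchymal, 163 and 401 CPM in proepicardial and 113 and 276 CPM in endothelial cells. Knockout levels of both were above control levels in each gate, with no overlap of intervals. Low cells made up 44.9% of control and 33.2% of knockout endoderm cells, intervals that overlap, and 21.4% and 18.1% of proepicardial cells.

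Aspm had log2 ratios of 1.07 in mesenchymal, 1.36 in proepicardial, 1.49 in endothelial and 1.27 in endoderm cells, and Anln 0.88, 1.21, 0.72 and 1.08. Cenpe lay between 0.68 in cells of no gate and 1.03 in endoderm, Bub1 between 0.59 in cells of no gate and 0.94 in endoderm, and Mcm4 between 0.69 in mesenchymal and 0.79 in endoderm. Mcm4 thus varied least of the 7. Hmmr was higher in 2 gates, at 85.7 and 162 CPM in proepicardial and 44.0 and 102 CPM in endoderm cells. Cenpf was higher in the same gates, with log2 ratios of 0.64 and 0.63, and Top2a in endoderm, at 247 and 439 CPM. Of the 6 members that regulate mitotic entry and exit none passed 1.5-fold in any gate. Ccnb2 and Cdc20 lay below 0 in all 5 sets of cells. In endoderm the other 4 lay above 0, Ccnb1 at 0.49, Cdk1 at 0.33, Ccna2 at 0.22 and Ube2c at 0.006. The place of all 6 below 0 over all cells thus did not recur there. Ccna2 also lay above 0 in proepicardial cells, at 0.14, and Cdk1 in mesenchymal cells, at 0.04.

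Ccnd1 gave a case of a pooled ratio that differs from those within states. Over all cells it lay at 0.15, and in each of the 5 sets of cells it lay below 0. Without the 10% of cells with the most UMIs the pooled ratio was -0.03, so its sign depended on those cells. Cells of no gate, a set of these 5, are not matched by state. Their cardiomyocyte markers summed to 1112 CPM in control and 240 CPM in knockout cells. Ccnd1 stood at 49.0 and 14.47 CPM in endoderm, a log2 ratio of -1.69 (-1.95 to -1.44), and at 29.1 and 15.3 CPM in proepicardial cells. In endothelial cells it stood at 282 and 281 CPM, a log2 ratio of -0.005. Cells of the cardiomyocyte gate, at 26.8 CPM, made up 17.0% of control cells, and posterior mesoderm and pluripotent cells, at 152 and 178 CPM, made up 4.04% and 2.10% of knockout cells. Ung was the other member lower in proepicardial cells, at 52.8 and 31.6 CPM. Rrm1 lay above 0 and Rrm2 below 0 in all 5 sets, and Mcm2 below 0 in all 5.

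**Figure D5:**
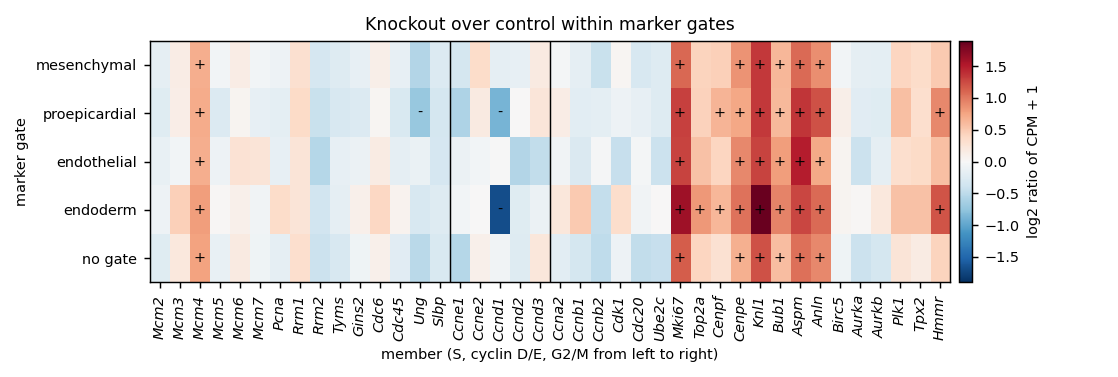
Log2 ratio of CPM plus 1, knockout over control, for each member (columns) within 4 marker gates and cells of no gate (rows); plus and minus signs mark at least 1.5-fold higher and lower. The columns of Mcm4, Mki67, Cenpe, Knl1, Bub1, Aspm and Anln carry a plus in all 5 rows, and Ccnd1 carries a minus in the proepicardial and endoderm rows.

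Ratios followed length within states as well. Spearman's rho over the 20 G2/M members was 0.87 in mesenchymal, 0.81 in proepicardial, 0.72 in endothelial, 0.84 in endoderm cells and 0.86 in cells of no gate. Over all features of each set of cells it lay between 0.42 in endoderm and 0.51 in mesenchymal cells. G2/M members of at least 4000 bases had medians from 0.68 in cells of no gate to 1.03 in endoderm, and shorter ones from -0.33 in cells of no gate to 0.20 in endoderm.

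Other genes of the cycle, from 5 lists, were read the same way. Between libraries 6 of 85 measured listed genes were higher and 2 lower, both smaller shares than the 12.7% and 6.75% of all features. Of the inhibitors of cyclin-dependent kinases and the Rb family, 1 of 6 measured genes was higher and 1 lower. Cdkn1b stood at 27.6 CPM in control and 57.0 CPM in knockout cells and Cdkn2d at 36.1 and 22.3 CPM, while Cdkn1c stood at 665 and 517 CPM and Cdkn1a at 24.1 and 35.1 CPM. Of 15 E2F, DREAM and FoxM1 factors none passed 1.5-fold in one or the other direction, and E2f7 and Tfdp1 lay furthest out among those at 20 CPM or more, at 0.47 and -0.25. Of 13 cyclin-dependent kinases, their phosphatases and checkpoint kinases none passed either, with Chek1 at 0.36 and Cks2 at -0.28. Of 25 other replication genes 2 were higher and none lower, with Pola1, the catalytic subunit of DNA polymerase alpha, at 26.1 and 55.0 CPM. Of 26 other mitosis genes 3 were higher and 1 lower: Kif4 stood at 29.0 and 58.1 CPM and Kif20b at 47.5 and 84.2 CPM, both motor proteins, and Cdca3 at 234 and 150.2 CPM.

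Along Actc1 in the control 48 of the 85 listed genes were lower in the top bin than at 0 and 3 were higher, beside 9.25% and 7.75% of all features. With at least 30000 UMIs per cell 13 were lower. These lists were not read with bins on Myl7 or Tnnt2, where far fewer members were lower than with Actc1. All 25 other replication genes and all 26 other mitosis genes lay below 0, and 18 and 17 passed 1.5-fold, with medians of -0.65 and -0.70. Tk1, thymidine kinase, stood at 58.1 CPM at 0 and 27.0 CPM in the top bin, Exo1 at 34.2 and 15.9 CPM, Kif20b at 49.2 and 21.8 CPM and Bub1b at 64.9 and 32.2 CPM. Pttg1, securin, differed least of the mitosis genes, at 160 and 152 CPM. Of the kinases and phosphatases 7 of 13 were lower, among them Cdc25a at 47.4 and 25.4 CPM, while Wee1 stood at 31.97 and 38.0 CPM. Of the E2F, DREAM and FoxM1 factors 5 of 15 were lower, with E2f5 at 77.2 and 36.2 CPM and E2f1 at 24.7 and 14.4 CPM.

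The list of inhibitors and the Rb family was the only 1 of the 5 with members higher in the top bin, 3 of 6, beside 1 lower. Cdkn1c, the inhibitor p57, stood at 570 CPM at 0 and at 679, 855, 887 and 1475 CPM in the bins above, each bin above the one before. Cdkn2d stood at 32.7 CPM at 0 and 50.8 CPM in the top bin, and Rb1, of the Rb family, at 3.99 and 6.68 CPM. Rb1 passed the filter of 5 CPM only through the top bin, so the filter itself favoured its call. Cdkn1a, the inhibitor p21, went the other way, at 25.5 and 11.3 CPM.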

How the data were processed

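The authors deposited 1 matrix of UMI counts per library, made with Cell Ranger per the file headers (matrix header version 4); the submitters' processing notes name GRCm39, mm39 and R 4.1.1. The counts are not normalized, and the sources used here do not state whether counting used strand. Barcodes with at least 15000 UMIs and at most 10% mitochondrial UMIs were kept, and no doublets were removed. Cells hold 94.8% and 96.0% of the library UMIs. Counts were summed over cells and scaled to CPM, and log2 ratios used a prior of 1 CPM. UMIs are not all independent molecules, so intervals cover counting error only. No test was possible with 1 library per group.

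The members, lists, marker gates and rules were chosen with earlier results of these data known. Values are given for members past 1.5-fold and, per role, for those with the largest and smallest ratios; of the other lists, for the 2 largest in each direction at 20 CPM or more. Other genes are named as exceptions, chosen after their values were seen.

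The endothelial, endoderm, pluripotent and haematopoietic gates needed at least 6, 5, 4 and 3 of their markers with 2 or more UMIs each, and cells in more than 1 of these were set apart. The cardiomyocyte gate needed a marker sum of 5000 CPM, the cardiac progenitor and mesenchymal gates 1500 CPM, the posterior mesoderm gate 300 CPM and the proepicardial gate 200 CPM, the last 2 with at least 3 markers detected. Transcript length is that of the longest coding transcript (GENCODE, GRCm38), matched for 99.971% of measured features. Trends on length and GC were lowess fits with a fraction of 0.3. Alternatives covered depth, mitochondrial content, prior, scaling (edgeR 4.0.16 TMM, DESeq2 1.42.0 size factors), thinning, free RNA, bins and gates. Python used numpy 2.4.6, scipy 1.17.1, pandas 2.3.3 and statsmodels 0.14.6; the scripts were tested on simulated data.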

Additional observations from a re-analysis of the deposited data

How the results depend on the processing

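No paired analysis was possible because only 1 library stands in each group. Of 108 alternative values of main results 84 stayed the same by the rules used, and of 892 for single genes and for medians of phase groups 480 did. The alternatives for cells with few G2/M UMIs were chosen after seeing the data.

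With at least 30000 UMIs, 5 members and 13 other listed genes were lower along Actc1, 10 other listed genes were higher between libraries and 0 lower, 12 members were higher and 1 lower in mesenchymal cells, and 1 was lower in cells of no gate. The difference in cells with few G2/M UMIs was then 23.7 percentage points along Actc1 and -5.64 between libraries. With at most 5% mitochondrial UMIs it was -6.76 between libraries, 1 other listed gene was lower, 11 members were higher in mesenchymal cells and 2 were lower in endoderm. Over the 11 short G2/M members with a limit of 7 it was 2.23. With the correction for length and GC content, 4 members were higher, 1 lower, and 1 other listed gene lower. With bins on Myl7, 3 members were lower, with Top2a at 0.037 and Aspm at 0.052. With bins on Tnnt2, 4 were lower, with Top2a at 0.012 and Aspm at 0.0201. Other G2/M members under 1.5-fold also came out above 0 with these bins, up to 0.35 for Cenpf on Myl7 and 0.25 on Tnnt2. With 1 more marker 1 member was lower in proepicardial cells. Thinning gave 1 lower member each in mesenchymal and endothelial cells, and leaving out the 10% of cells with the most UMIs gave 1 each in mesenchymal cells and cells of no gate. The cause was not tested.

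TMM and DESeq2 scaling moved all log2 ratios by 0.02 and 0.04, and the median of S members, -0.03, came out just above 0 with the latter. Without the 10% of cells with the most UMIs, the median of D and E cyclins came out at -0.03 in place of 0.15, as did Ccnd1. With no filter on low values, 6.08% of 25496 features were higher and 4.24% lower.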
